A study of Mus musculus with 6 samples.

Results

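The genes described are 9 members of the complement system: the recognition subunits C1qa and C1qb, the protease C1ra, the components C4b and C3, the stabilising factor Cfp, the regulator Cd55 and the receptors C3ar1 and C5ar1. They were chosen by name, all 9 are among the 22281 features of the count table, and their counts were summed in each of the authors' 17 cell clusters and each library. The data are Drop-seq profiles of adult mouse hearts, in which droplets barcode the 3' transcript ends of single cells, so that 1 unique molecular identifier (UMI) stands for 1 captured transcript. YAP5SA mice carried Yap5SA+/tg, a transgene for a form of the Hippo pathway coactivator YAP that the Lats kinases cannot phosphorylate, together with Myh6-MCM, a Cre recombinase that tamoxifen activates in cardiomyocytes. Control mice carried Myh6-MCM without the transgene, and both genotypes received tamoxifen. Each genotype has 3 libraries, 2 from collagenase-dissociated heart tissue and 1 from cardiomyocytes enriched by settling. The transgene acts in cardiomyocytes, so that a difference in any other cell type is measured in cells that the Myh6 promoter does not target.

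Complement is a cascade of plasma and tissue proteins in which C1q, with its proteases C1r and C1s, starts the classical pathway and cleaves C4 and C2. The enzymes formed in this way, or on surfaces by the alternative pathway that properdin (Cfp) stabilises, cleave C3, the central component, into C3b, which coats targets, and C3a, a small peptide that signals through C3ar1. Cd55, a membrane protein also called decay-accelerating factor, takes these enzymes apart, and C5ar1 is the receptor of C5a, the corresponding peptide of C5.

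The 9 transcripts fell into a stromal and a myeloid set, and the sequences upstream of 4 of them are shown because they stand for the cells where each was found: C3 and C1ra from the stroma, C1qb and C3ar1 from macrophages. RefSeq entries on GRCm38.p6 were found for 7 of the 9 genes, without C1qa and C4b, and each run is the 250 bases before the annotated start, 5' to 3' on the strand of the gene. Both strands were searched for GAGGAA (a PU.1-type ETS motif), GGAATG (TEAD), TGANTCA (AP-1) and TTNNGCAA (C/EBP), which occur in 23.3%, 12.6%, 6.75% and 9.56% of all 32851 windows of this length in the same table. Capitals mark the matches. The C3 window, on the minus strand at chr17:57228137-57228386, holds 1 C/EBP match on the opposite strand, 45 to 38 bases before the start. The C1ra window, on the plus strand at chr6:124512371-124512620, holds 1 TEAD match on the opposite strand, 74 to 69 bases before the start. The C1qb window, on the minus strand at chr4:136886201-136886450, holds 1 ETS match 30 to 25 bases before the start. The C3ar1 window, on the minus strand at chr6:122856158-122856407, holds 1 AP-1 match 22 to 16 bases before the start. None of these letters were found in the windows of Cfp, Cd55 and C5ar1, so the 4 windows shown are also the only ones of the 7 with a match.
C3: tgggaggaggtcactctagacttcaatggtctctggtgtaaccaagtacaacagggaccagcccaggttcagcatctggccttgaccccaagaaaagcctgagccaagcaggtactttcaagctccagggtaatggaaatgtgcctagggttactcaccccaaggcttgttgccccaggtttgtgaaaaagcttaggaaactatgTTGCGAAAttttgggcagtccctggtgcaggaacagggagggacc
C1ra: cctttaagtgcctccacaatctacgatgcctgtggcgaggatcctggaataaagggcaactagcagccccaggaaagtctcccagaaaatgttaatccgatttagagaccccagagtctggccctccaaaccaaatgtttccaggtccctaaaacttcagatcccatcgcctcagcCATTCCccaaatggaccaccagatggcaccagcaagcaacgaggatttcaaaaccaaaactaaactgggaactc
C1qb: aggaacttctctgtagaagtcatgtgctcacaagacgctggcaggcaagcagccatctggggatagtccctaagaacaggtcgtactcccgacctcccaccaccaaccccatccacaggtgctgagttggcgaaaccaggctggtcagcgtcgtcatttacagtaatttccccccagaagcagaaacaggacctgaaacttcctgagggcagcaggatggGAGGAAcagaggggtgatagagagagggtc
C3ar1: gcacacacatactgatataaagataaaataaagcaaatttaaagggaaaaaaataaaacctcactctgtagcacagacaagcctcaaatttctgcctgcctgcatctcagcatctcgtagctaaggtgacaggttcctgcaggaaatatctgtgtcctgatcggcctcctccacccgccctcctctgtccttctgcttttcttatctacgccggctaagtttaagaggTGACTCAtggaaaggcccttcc

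The 6 libraries held 21706 cells and 50784032 UMIs, with 3382656 to 13483791 UMIs per library, and 10 of 21696 barcodes occurred in more than 1 library. Control enriched held 0 macrophages, 0 monocytes and 10 fibroblasts, so its levels in those cells are absent or rest on few UMIs. Control tissue-3 also stood apart. A median of 15.95% of the UMIs per cell in Control tissue-3 were mitochondrial, against 2.31% in Control tissue-2, 13.4% in Control enriched and 2.40 to 6.60% in the 3 YAP5SA libraries. Levels are the UMIs of a gene per 1000000 UMIs of the cells summed (CPM). The 148 macrophages of Control tissue-3 carried 5216 CPM of 7 fibroblast markers, against 284 to 559 CPM in the macrophages of the other libraries. The 66 cells of its monocyte cluster carried 16347 CPM of these fibroblast markers, against 377 to 2040 CPM in the other libraries, and 3 of 4 monocyte markers (Ly6c2, Plac8 and Chil3) were at 0 in them. The fourth monocyte marker, Ccr2, stood at 234 CPM in them. The 7 macrophage markers summed to 3517 CPM in these cells, against 4025 to 5454 CPM in the monocyte cluster of the other libraries. In Control tissue-3 the cluster thus carried myeloid markers, but 3 of the 4 markers of its monocyte label were absent and fibroblast markers were high. The values of a genotype follow the order of its libraries: tissue-1, then tissue-2, then enriched for YAP5SA, and tissue-2, then tissue-3, then, where it held at least 10 cells, enriched for Control. Each log2 fold change (YAP5SA over Control) comes from an edgeR quasi-likelihood fit over all genes with TMM scaling and p-values adjusted by the Benjamini-Hochberg method. The labels do not say that libraries came from separate mice, so p-values measure the spread between these libraries only.

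C1ra rose in YAP5SA cardiomyocytes, as did Cd55, Cfp and C1qb with smaller fold changes, and these 4 of 8 members tested passed at an adjusted p of 0.05 there. Among all genes tested in cardiomyocytes 26.6% passed, and 13.9% passed as higher. C3 was held by epicardial cells and fibroblasts of both genotypes, and C3ar1, C5ar1, C1qa, C1qb and Cfp by macrophages and monocytes. None of the members passed in any of the 16 clusters tested one by one: of 67 tests, 14 had an unadjusted p under 0.05 in edgeR, and DESeq2 called 0. The 14 lay in CF4 (4 members), YAP5SAcm (3), CM1 and Mac4 (2 each), and EpiC, Mac1 and Mac2 (1 each). Among all genes, 612 of 7154 in CF4, 1221 of 6063 in YAP5SAcm and 1089 of 8205 in CM1 were also under 0.05. So were 983 of 9773 in Mac4, 103 of 1822 in EpiC, 787 of 8459 in Mac1 and 614 of 7558 in Mac2. Without Control tissue-2 or without Control tissue-3, which leaves the fibroblast, epicardial and myeloid clusters with 1 Control library, up to 3 members passed in a cluster, and leaving out any other library gave none. Those fits also called more genes in all, up to 342 in CF1, 717 in CF2, 741 in CF3, 502 in CF4, 164 in EpiC, 556 in Mac1, 533 in Mac2, 366 in Mac4, 630 in Mo and 768 in CM1. With no library left out, the share of all genes called was 0% in CF1, CF2, CF3, EC, EndoC, EpiC, Mo and SMC. It was 0.0244% in CM1, 0.0662% in Mac2, 0.393% in CM3, 0.875% in Mac1, 1.69% in Mac4, 2.56% in CF4, 4.65% in CM2 and 7.52% in YAP5SAcm. Differences between clusters are given as descriptions, since the clusters were drawn from the same transcripts.

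**Figure D1:**
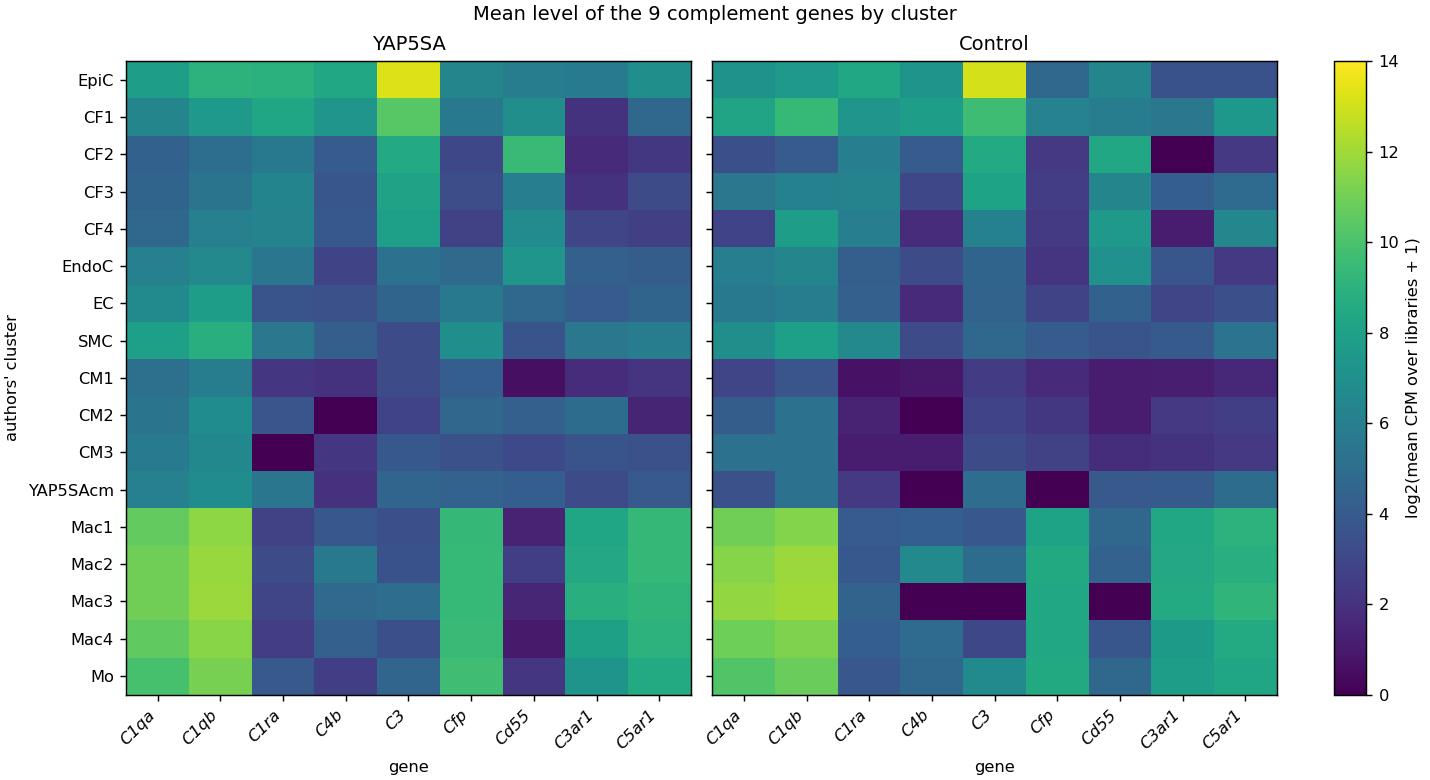
Mean level of each gene over the libraries of YAP5SA (left) and Control (right) in each of the 17 clusters, as log2(CPM + 1), with libraries of at least 10 cells. C3, C1ra and C4b are brightest in the epicardial cluster EpiC and the fibroblast cluster CF1, Cd55 in CF2, and C1qa, C1qb, Cfp, C3ar1 and C5ar1 in the clusters Mac1 to Mac4 and Mo.

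C1qa and C1qb encode 2 of the 3 chains of C1q and were macrophage transcripts in both genotypes. C1qb stood at 3267, 3596 and 2851 CPM in YAP5SA macrophages, against 3510 and 2536 CPM in Control ones. The groups overlapped, and the log2 fold change was 0.03 ± 0.40 (SE; edgeR, Benjamini-Hochberg adjusted p = 0.999). C1qa stood at 1795, 2181 and 1061 CPM in YAP5SA macrophages, against 3134 and 1331 CPM in Control macrophages, with the Control tissue-2 value above all others and a log2 fold change of -0.29 ± 0.46 (SE). Leaving out Control tissue-2 turned it to 0.37. In the macrophages of a library, C1qa was 0.549, 0.607 and 0.372 times C1qb in YAP5SA, against 0.893 and 0.525 times in Control. The ratio of the third chain, C1qc, to C1qb lay closer together, at 1.10, 0.907 and 0.984 in YAP5SA and 1.08 and 0.887 in Control. The 2 lowest ratios of C1qa to C1qb were in the 2 libraries whose feature names are not joined, YAP5SA enriched and Control tissue-3, and the part of the annotation in this was not tested.

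Across clusters, C1qb was highest in Mac3, at 3783 ± 324 CPM (SD, n = 3) in YAP5SA and 4119 CPM in the 1 Control library with enough cells. Mac2, Mac1 and Mac4 followed at 3625 ± 470, 3199 ± 309 and 2964 ± 333 CPM in YAP5SA, and at 3797 ± 905, 2745 ± 535 and 2470 ± 1034 CPM in Control (SD, n = 3 and n = 2). The ranges of neighbouring macrophage clusters overlapped in each genotype, except those of Mac2 and Mac1 in Control. Monocytes, cluster Mo, had 2672, 2271 and 1855 CPM in YAP5SA and 2210 and 1420 CPM in Control. After thinning each cell to 1000 UMIs, 90.2 to 93.5% of YAP5SA macrophages and 88.3 and 89.9% of Control macrophages had a C1qb UMI. In endothelial cells, cluster EC, which are not known as a source of C1q, the thinned share was 4.94, 9.52 and 16.2% in YAP5SA and 4, 5.75 and 0.588% in Control, which gives the background of such shares.

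C1ra encodes C1r, the protease that C1q activates first, and it was highest in the epicardial cluster in both genotypes. EpiC held 465, 665 and 334 CPM in YAP5SA, against 375 and 279 CPM in Control, and the groups overlapped (log2 fold change 0.79 ± 0.47, SE). CF1 came next, with 288, 297 and 311 CPM in YAP5SA and 226 and 86.3 CPM in Control. All 3 YAP5SA values in CF1 were above both Control values, as for 22.6% of the genes tested there, and the log2 fold change of 0.79 ± 0.47 (SE) did not pass (edgeR, Benjamini-Hochberg adjusted p = 0.938). The other fibroblast clusters averaged 49.2 to 77.9 CPM in YAP5SA and 62.5 to 74.6 CPM in Control. Smooth muscle cells had 26.9, 49.4 and 63.5 CPM in YAP5SA, against 110.3, 92.4 and 88.8 CPM in Control, from 1 to 7 UMIs per YAP5SA library and 4 to 22 UMIs per Control library, and the gene was too sparse there to be tested. In macrophages C1ra was at 3.78 to 7.41 CPM in YAP5SA and 10.7 and 17.9 CPM in Control, with the YAP5SA values below the Control ones (log2 fold change -0.97 ± 0.65, SE). Groups did not overlap for 35.9% of the genes tested in macrophages.

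In cardiomyocytes, C1ra stood at 43.4, 36.5 and 12.9 CPM in the YAP5SA libraries, from 46, 46 and 57 UMIs in 343, 282 and 1004 cells. The Control cardiomyocytes had 0.881, 1.504 and 0 CPM, from 3, 11 and 0 UMIs in 576, 1173 and 1068 cells. Each YAP5SA library was above each Control library, as for 48.2% of the genes tested in cardiomyocytes. The log2 fold change was 4.28 ± 0.56 (SE; edgeR, Benjamini-Hochberg adjusted p = 0.00509), and DESeq2 gave 4.32 (Benjamini-Hochberg adjusted p = 1.64e-08). The call held with each library left out in turn, at 3.91 to 5.10 with an edgeR adjusted p of at most 0.0451 after Benjamini-Hochberg correction. It also held under each other setting chosen at the start for this class, with the highest value, 5.19, from library totals alone. Cardiomyocytes held 18.0, 7.24 and 21.6% of the C1ra UMIs of the YAP5SA libraries, against 1.85, 5.67 and 0% in the Control libraries.

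Of the C1ra UMIs of YAP5SA cardiomyocytes, 45 of 46, 44 of 46 and 54 of 57 lay in cluster YAP5SAcm, which holds 896 of the YAP5SA cardiomyocytes and 99 of the Control ones. In that cluster 60.3, 46.9 and 23.3 CPM were counted in YAP5SA (45, 44 and 54 UMIs in 212, 203 and 481 cells), against 0, 11.9 and 0 CPM in Control (0, 1 and 0 UMIs in 50, 33 and 16 cells). Within the cluster the groups did not overlap, as for 27.9% of genes there, and the log2 fold change of 3.31 ± 1.10 (SE) fell just short of the threshold (edgeR, Benjamini-Hochberg adjusted p = 0.0519). With RLE size factors it was 3.40 (edgeR, Benjamini-Hochberg adjusted p = 0.0391), without Control tissue-2 it was 2.02 (edgeR, Benjamini-Hochberg adjusted p = 0.366), and without Control tissue-3, which holds the only Control UMI, it was 8.23 (0.0605). Thinned to 1000 UMIs, 7.78, 4.95 and 2.95% of the YAP5SA cells of the cluster had a C1ra UMI, against 0% in each Control library, and unthinned shares were 15.6, 15.3 and 9.56%, against 0, 3.03 and 0%. In endothelial cells the thinned share was 0, 1.19 and 1.08% in YAP5SA and 0, 1.82 and 2.35% in Control. In CM1 to CM3 together, C1ra had 3.19, 6.19 and 1.42 CPM in YAP5SA (1, 2 and 3 UMIs) and 0.921, 1.38 and 0 CPM in Control, so the gene was not tested once the cells of YAP5SAcm were left out.

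Markers of other cell types also differed between the cardiomyocytes of the genotypes, and their part in the C1ra result was not tested. The 7 fibroblast markers summed to 521, 637 and 689 CPM in YAP5SA cardiomyocytes, against 269, 604 and 132 CPM in Control cardiomyocytes, and none was at 0 in any library. The 5 epicardial markers summed to 72.7, 62.7 and 36.5 CPM in YAP5SA, against 1.76, 3.83 and 2.08 CPM in Control, where Upk3b and Upk1b were at 0 in tissue-2 and Krt19 in enriched. The 6 smooth muscle and pericyte markers summed to 3514, 3109 and 3036 CPM in YAP5SA, against 198, 96.5 and 78.8 CPM in Control, which in YAP5SAcm was largely Acta2, smooth muscle actin, at 4083, 3535 and 4654 CPM in YAP5SA against 342, 441 and 37.0 CPM in Control. Myh11, smooth muscle myosin, was at 96.5, 101.4 and 59.7 CPM there in YAP5SA, against 13.7, 0 and 0 CPM in Control. Tagln, also a smooth muscle gene, was higher in each YAP5SA library there as well, while the pericyte genes Rgs5, Kcnj8 and Pdgfrb were not: Rgs5 had 41.6, 25.6 and 107 CPM in YAP5SA, against 6.84, 215 and 1257 CPM in Control.

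Set against its own level in the fibroblasts of the same library, C1ra in cardiomyocytes was 55.6, 36.3 and 16.3% in YAP5SA and 1.71, 1.69 and 0% in Control. The 7 fibroblast markers reached a median of 1.29, 1.67 and 2.03% of their fibroblast level in the YAP5SA libraries and 0.621, 1.22 and 0.355% in the Control libraries, with a highest single marker of 6.19%. C3 and Cd55 were at 3.68 to 6.94% of their fibroblast level in YAP5SA cardiomyocytes. On this scale C1ra alone among these genes lay above the range of the fibroblast markers in all 3 YAP5SA libraries. The highest fibroblast marker stood at 3.88, 6.19 and 5.24% in these libraries. C3 was above it in tissue-1 (5.34%) and enriched (6.59%), and Cd55 in tissue-1 (5.89%) and tissue-2 (6.94%). EpiC of YAP5SA, where C1ra was highest, held 465, 665 and 334 CPM of it, against 60.3, 46.9 and 23.3 CPM in YAP5SAcm. For the epicardial marker Wt1 these were 164, 289 and 299 against 28.2, 19.2 and 16.4 CPM. The other epicardial markers were lower in YAP5SAcm relative to EpiC, such as Upk3b (1971, 1297 and 1684 against 30.8, 35.2 and 16.4 CPM). Their part was not tested. Within YAP5SAcm, the YAP5SA cells with a C1ra UMI were deeper than those without, with medians of 3218, 5551 and 7662.5 UMIs against 1884, 2526.5 and 3024. Their fibroblast marker sum was 347, 1088 and 2209 CPM, against 625, 584 and 834 CPM in the cells without, lower in YAP5SA tissue-1 and higher in the other 2 libraries. Their epicardial marker sum was higher in each library, at 108, 105 and 64.9 CPM, against 75.1, 70.2 and 55.0 CPM. The smooth muscle and pericyte sum was also higher in each, at 6459, 4102 and 5314 CPM, against 3661, 3697 and 4843 CPM. Macrophage markers were higher only in YAP5SA enriched. When cells with any UMI of 18 macrophage, monocyte or fibroblast markers were dropped, C1ra stood at 15.7, 0 and 10.1 CPM in the remaining YAP5SA cardiomyocytes, against 0, 0.611 and 0 CPM in the Control ones, from 4, 0 and 13 against 0, 1 and 0 UMIs. Only 49 of 282 cardiomyocytes of YAP5SA tissue-2 remained, and the gene was too sparse to be tested in that subset.

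**Figure D2:**
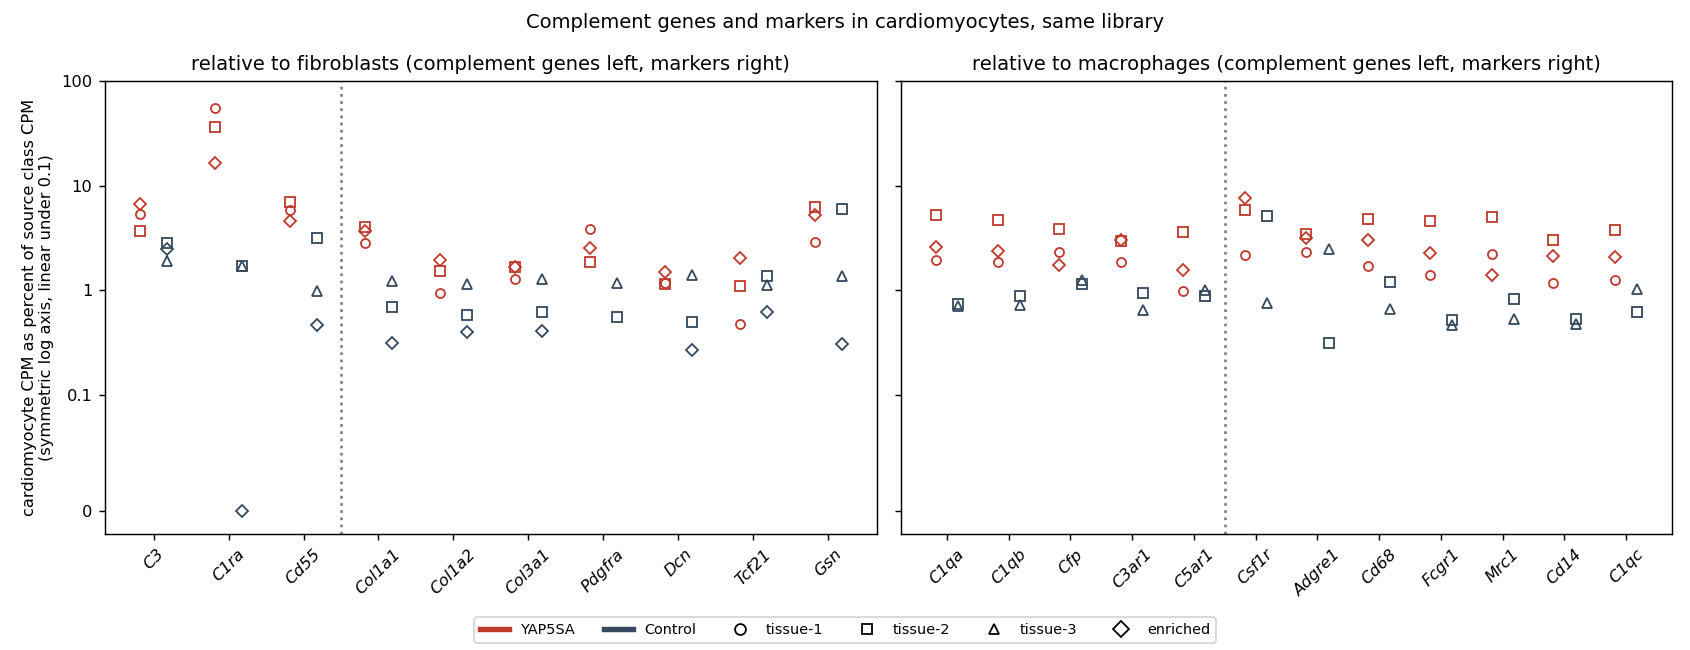
Level in cardiomyocytes as a percentage of the level in the fibroblasts (left) or macrophages (right) of the same library, on a symmetric log axis, for complement genes and, right of the dotted line, cell type markers, with 1 point per library. C1ra lies at 16.3 to 55.6% in YAP5SA, while the myeloid genes lie at 0.990 to 5.20% and the macrophage markers at 1.16 to 7.55% in YAP5SA.

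The other 3 genes that rose in cardiomyocytes had smaller fold changes and were far higher in other cells: Cfp and C1qb in macrophages and monocytes, Cd55 in fibroblasts. Cfp stood at 15.1, 32.5 and 8.80 CPM in YAP5SA cardiomyocytes, against 4.41, 3.15 and 0.694 CPM in Control ones, with a log2 fold change of 2.02 ± 0.46 (SE; edgeR, Benjamini-Hochberg adjusted p = 0.0205). Cd55 stood at 19.8, 11.9 and 7.44 CPM, against 1.47, 2.32 and 1.04 CPM, with 2.05 ± 0.49 (SE; edgeR, Benjamini-Hochberg adjusted p = 0.0229). C1qb stood at 60.4, 167 and 67.9 CPM, against 30.6, 18.2 and 2.78 CPM, with 2.04 ± 0.61 (SE; edgeR, Benjamini-Hochberg adjusted p = 0.0486). All 3 genes were above every Control library in each YAP5SA library, and groups did not overlap for 48.2% of the genes tested in cardiomyocytes. These calls rest on few libraries, in edgeR with Benjamini-Hochberg correction: Cfp was lost without YAP5SA tissue-2 (1.75, adjusted p = 0.148), YAP5SA enriched (1.80, 0.0687), Control tissue-3 (2.04, 0.0610) or Control enriched (1.75, 0.0723). Cd55 was lost without YAP5SA tissue-1 (1.85, edgeR, Benjamini-Hochberg adjusted p = 0.126), YAP5SA tissue-2 (2.31, 0.0912), YAP5SA enriched (2.06, 0.0688) or Control enriched (2.00, 0.0748). C1qb was lost in every such fit except the one without YAP5SA tissue-1, with edgeR adjusted p-values after Benjamini-Hochberg correction of 0.0568 to 0.240 and log2 fold changes of 1.34 to 2.24. The C1qb call was also lost with RLE size factors (2.00, edgeR, Benjamini-Hochberg adjusted p = 0.0506), without the filter on low counts (2.00, 0.0791), without the preparation term (1.70, 0.0973), with tissue libraries alone (1.37, 0.121) and with names as deposited (2.08, 0.0737). Cfp was lost as well without the preparation term (1.82, edgeR, Benjamini-Hochberg adjusted p = 0.0573) and with tissue libraries alone (1.79, 0.0610). With tissue libraries alone Cd55 was lost too (2.05, edgeR, Benjamini-Hochberg adjusted p = 0.0604). The 5 myeloid members stood at 0.990 to 5.20% of their macrophage level in YAP5SA cardiomyocytes and 0.647 to 1.25% in Control ones. The 7 macrophage markers had medians of 1.70, 4.62 and 2.25% in YAP5SA and 0.614 and 0.660% in Control, and summed to 127, 311 and 167 CPM in YAP5SA cardiomyocytes against 81.7, 44.7 and 7.29 CPM in Control ones. Their part in the increases of Cfp and C1qb was not tested. The remaining members tested there, C3, C3ar1, C1qa and C5ar1, had log2 fold changes of 0.79 to 2.02 that did not pass in edgeR, while DESeq2 called 5 members, C1qa among them (2.12, Benjamini-Hochberg adjusted p = 0.0138). In edgeR 26.6% of all genes passed there. The number over all genes is not given for DESeq2, so its count of 5 is not read as a result about the members. The median over the 8 members was 2.02, and the median over all genes tested was 0.04. Scaled by library totals alone, 7 members passed and the median over all genes was 0.87, so fold changes here are relative to the TMM scaling.

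C4b encodes C4, cleaved by the C1 complex. It was sparse, with 818 UMIs in all, and was found in EpiC, CF1 and Mac2. EpiC had 438, 247 and 334 CPM in YAP5SA, against 187 and 110 CPM in Control. All YAP5SA values were higher, as for 21.1% of the genes tested in EpiC, and the log2 fold change of 1.17 ± 0.54 (SE) did not pass (edgeR, Benjamini-Hochberg adjusted p = 0.889). CF1 had 51.2, 239 and 179 CPM in YAP5SA and 355 and 86.3 CPM in Control, which overlapped widely. Mac2 had 31.5, 60.6 and 59.0 CPM in YAP5SA, against 194 and 0 CPM in Control, so that the 2 Control libraries lay on either side of all YAP5SA libraries. Other macrophage clusters averaged 26.8 CPM or less in YAP5SA and 29.2 CPM or less in Control. The near-identical gene C4a had 12 UMIs in all, and reads of the pair may have been split between them.

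C3, the component on which all complement pathways meet, was highest in epicardial cells. EpiC held 8785, 10227 and 10869 CPM in YAP5SA, counted as 321, 954 and 910 UMIs of 27, 41 and 34 cells, against 9794 and 7535 CPM in Control, counted as 575 and 1782 UMIs of 37 and 110 cells. The groups overlapped, at 9961 ± 1067 CPM in YAP5SA (SD, n = 3) and 8664 ± 1597 CPM in Control (SD, n = 2), and the log2 fold change was 0.10 ± 0.46 (SE; edgeR, Benjamini-Hochberg adjusted p = 0.984). In all 3 YAP5SA libraries every epicardial cell thinned to 1000 UMIs had a C3 UMI, and 100% and 96.3% did in the Control libraries. Of the 9 genes and 17 clusters, this was the highest mean CPM of any gene in any cluster, in both genotypes.

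Fibroblast cluster CF1 held the next highest C3, at 1113, 1538 and 1244 CPM in YAP5SA, against 903 and 690 CPM in Control. All YAP5SA values in CF1 were higher, and groups did not overlap for 22.6% of the genes tested there. The log2 fold change of 0.58 ± 0.46 (SE) did not pass (edgeR, Benjamini-Hochberg adjusted p = 0.942). CF2 had 471, 381 and 261 CPM in YAP5SA and 268 and 486 CPM in Control, and CF3 had 275, 291 and 230 CPM in YAP5SA and 206 and 351 CPM in Control. Both clusters overlapped between the genotypes. CF4 had 210, 303 and 194 CPM in YAP5SA, against 140 and 0 CPM in Control, where the 0 comes from 12 cells of Control tissue-3 and allows up to 258 CPM. Its groups did not overlap, as for 24.9% of the genes tested in CF4, and the log2 fold change of 1.04 ± 0.49 (SE) did not pass (edgeR, Benjamini-Hochberg adjusted p = 0.476). The steps from EpiC to CF1 and from CF1 to CF2 were larger than the spread over libraries in each genotype, while CF2 and CF3 overlapped. In endothelial cells, C3 was 9.11 to 42.2 CPM in YAP5SA and 2.44 to 43.0 CPM in Control.

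**Figure D3:**
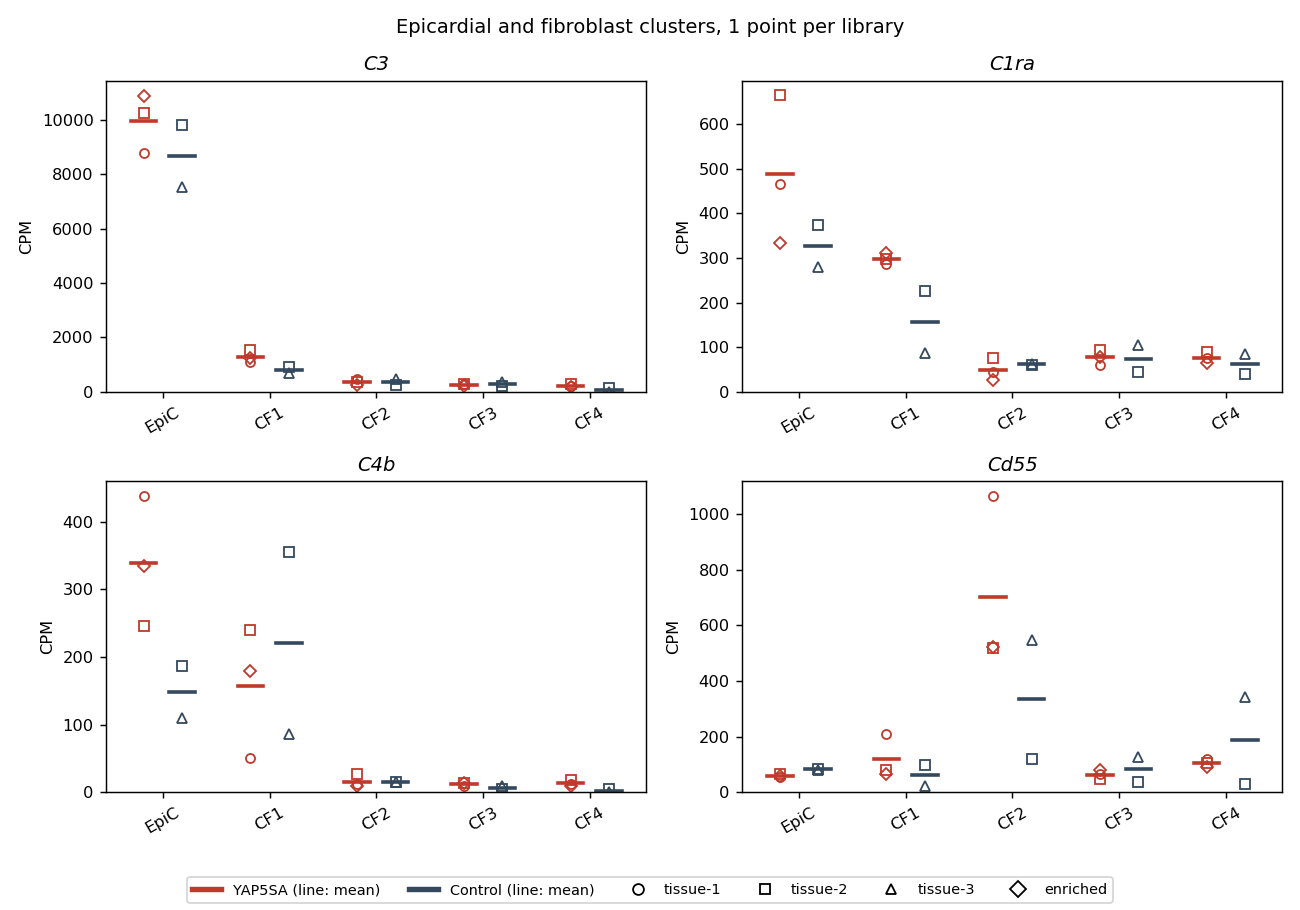
CPM of C3, C1ra, C4b and Cd55 in the epicardial cluster and the 4 fibroblast clusters, with 1 point per library of at least 10 cells, YAP5SA (red) left of Control (dark) and lines for means. C3 in EpiC lies at 8785 to 10869 CPM in YAP5SA and 7535 to 9794 CPM in Control, and C1ra in CF1 lies at 288 to 311 CPM in YAP5SA, above both Control points.

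Which cells held the C3 of a library differed between libraries with the cells recovered. Epicardial cells were 0.702, 0.6997 and 0.745% of cells in YAP5SA and 1.27, 3.53 and 0.498% in Control, yet held 28.0, 33.1 and 58.0% of C3 UMIs in YAP5SA and 51.4, 82.4 and 91.0% in Control. Fibroblasts held 66.3, 62.7 and 33.2% of C3 UMIs in YAP5SA and 45.9, 8.97 and 0.820% in Control, while being 33.9, 33.0 and 27.4% of cells in YAP5SA and 50.3, 13.3 and 0.712% in Control. The Control enriched shares rest on 7 epicardial cells, under the minimum of 10 used for levels, and on 10 fibroblasts with 1 C3 UMI. The mean share differed by -35.3 percentage points (YAP5SA minus Control) for epicardial cells and by 35.5 for fibroblasts, and both differences had an exact two-sided permutation p of 0.1667, the smallest that the 12 arrangements within preparation can give. Control tissue-3 and Control enriched, the libraries with the fewest fibroblasts, had the highest epicardial shares.

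**Figure D4:**
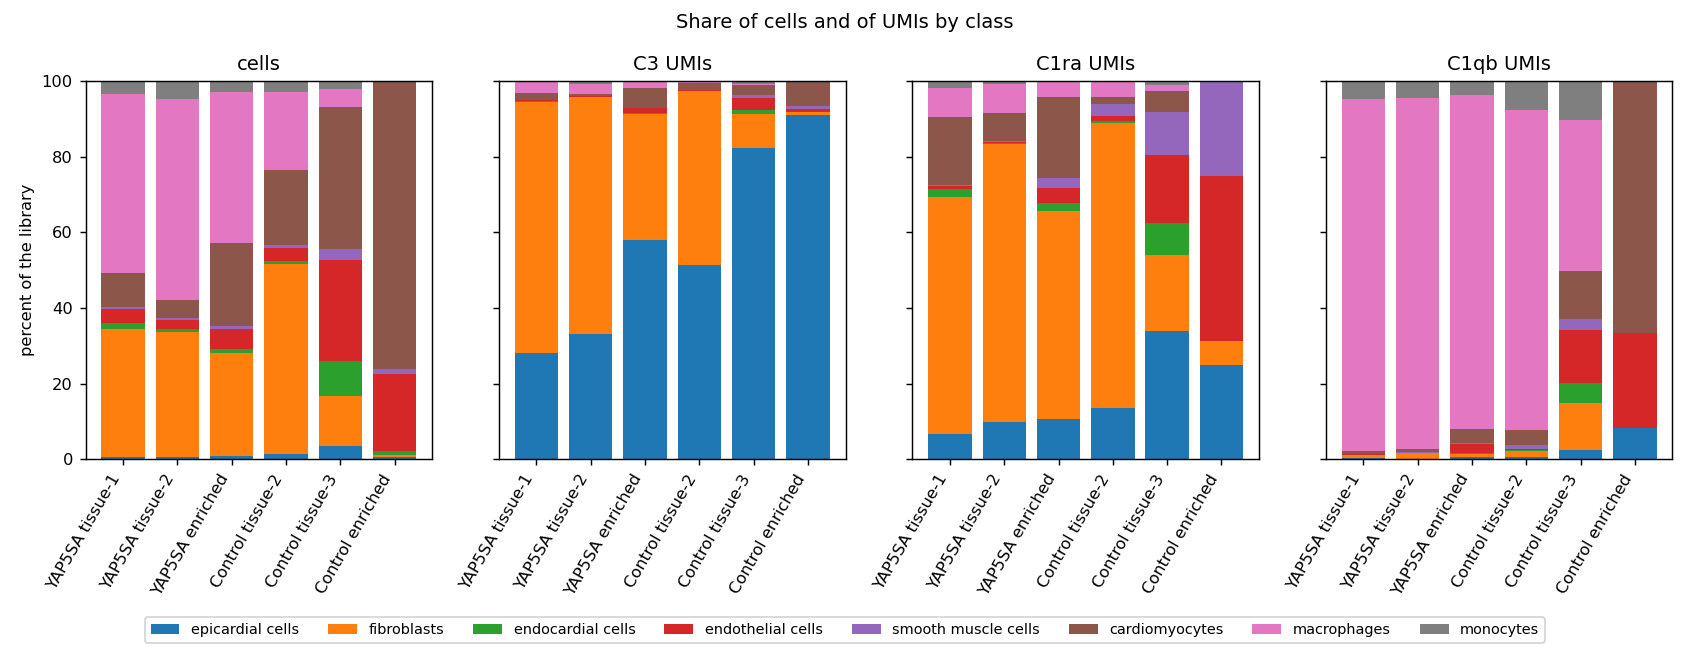
Percent of the cells and of the C3, C1ra and C1qb UMIs of each library in 8 cell classes, YAP5SA libraries left of Control ones. Epicardial cells are at most 3.53% of cells in any library and hold 28.0 to 91.0% of C3 UMIs, and macrophages hold 88.3 to 93.1% of C1qb UMIs in the YAP5SA libraries.

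Cfp, properdin, was a transcript of macrophages and monocytes and had more CPM in each of their clusters in every YAP5SA library than in any Control library. Macrophages held 654, 855 and 507 CPM in YAP5SA, against 390 and 251 CPM in Control. The log2 fold change was 1.08 ± 0.39 (SE) and did not pass (edgeR, Benjamini-Hochberg adjusted p = 0.408), and 35.9% of the genes tested in macrophages also had groups that did not overlap. In macrophages 0 of 8 members and 0% of all genes passed in edgeR, Cfp alone of the members had an unadjusted p under 0.05 as 1180 of all genes had, and DESeq2 called 0 of the members and 87 genes in all. Cfp in Mac1 stood at 597, 849 and 493 CPM in YAP5SA and 348 and 201 CPM in Control, with a log2 fold change of 1.25 ± 0.53 (SE). Mac2 had 697, 804 and 522 CPM in YAP5SA and 429 and 305 CPM in Control, with 0.86 ± 0.39 (SE). Mac4 had 661, 880 and 515 CPM in YAP5SA and 429 and 224 CPM in Control, with 1.18 ± 0.48 (SE). Non-overlapping groups were found for 34.8%, 32.8% and 36.9% of genes in Mac1, Mac2 and Mac4. Mac3, with 1 usable Control library and no test, had 698, 910 and 424 CPM in YAP5SA and 330 CPM in Control.

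Whether Cfp passed in these clusters, and its fold change, turned on single Control libraries. The levels of fibroblast transcripts in the macrophages and monocyte cluster of Control tissue-3 are given above. Without Control tissue-2 the log2 fold change of Cfp was 1.38 in macrophages, 1.87 in Mac1, 1.01 in Mac2, 2.01 in Mac4 and 2.59 in Mo. In Mo that fit rests on Control tissue-3 as the only Control library, where 3 of 4 monocyte markers were at 0 and fibroblast markers were high. Without Control tissue-3 the log2 fold change was 0.98 in Mac1. Each of these fits has 1 Control library, which is assumed to vary like the others. Monocytes held 899, 938 and 708 CPM in YAP5SA, against 609 and 117 CPM in Control, again with no overlap, which held for 28.1% of the genes tested there. The 117 CPM comes from Control tissue-3, whose monocyte label is borne out by its markers only in part. Thinned to 1000 UMIs, 43.5, 53.6 and 38.4% of YAP5SA macrophages had a Cfp UMI, against 26.7 and 25.3% of Control macrophages, and 1.23, 3.57 and 7.03% of YAP5SA endothelial cells, against 0, 0.454 and 0% of Control ones.

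Cd55, which limits complement on the cells that carry it, was a transcript of fibroblast cluster CF2 and of the endocardium. CF2 had 1066, 519 and 525 CPM in YAP5SA, against 119 and 550 CPM in Control. YAP5SA tissue-1 was highest and Control tissue-2 lowest, and the groups overlapped (log2 fold change 1.06 ± 0.80, SE). Endocardial cells, cluster EndoC, had 202, 159 and 110 CPM in YAP5SA and 259, 66.6 and 85.6 CPM in Control, also with overlap. CF4 had 120, 105 and 90.7 CPM in YAP5SA and 30.9 and 344 CPM in Control, the last from 4 UMIs in 12 cells. Over all fibroblasts Cd55 stood at 337, 172 and 163 CPM in YAP5SA and 46.5, 235 and 223 CPM in Control, the last from 2 UMIs, and its log2 fold change was 0.67 ± 0.65 (SE). Without Control tissue-3 it was 2.24 (edgeR, Benjamini-Hochberg adjusted p = 0.0335). In fibroblasts 0 of 8 members passed, against 2.22% of all genes, and DESeq2 called 0. An unadjusted p under 0.05 in edgeR was found for 2 members, and for 851 of all 10719 genes tested there. Fibroblasts held 92.9, 92.5 and 82.4% of the Cd55 UMIs of the YAP5SA libraries, against 82.1, 42.6 and 12.5% of those of the Control libraries.

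C3ar1, the receptor of the C3 fragment C3a, was found in macrophages and monocytes, at levels that overlapped between the genotypes in macrophages. Macrophages had 304, 269 and 318 CPM of it in YAP5SA, against 344 and 275 CPM in Control. The log2 fold change was -0.27 ± 0.34 (SE; edgeR, Benjamini-Hochberg adjusted p = 0.866). Mac3 was highest, with 464, 398 and 445 CPM in YAP5SA and 371 CPM in the 1 Control library, and in YAP5SA its range lay above that of Mac2, at 345 ± 13 CPM (SD, n = 3). Mac2, Mac1 and Mac4 formed a row of overlapping neighbours in both genotypes. Monocytes had 163, 139 and 143 CPM in YAP5SA, against 310 and 130 CPM in Control, where Control tissue-2 was highest and Control tissue-3 lowest. After TMM scaling both Control values lay above the YAP5SA values, and groups did not overlap for 28.1% of the genes tested there. The log2 fold change of -0.75 ± 0.43 (SE) did not pass (edgeR, Benjamini-Hochberg adjusted p = 0.755). Macrophages held 95.0, 93.8 and 89.5% of the C3ar1 UMIs of the YAP5SA libraries, against 81.3, 40.7 and 0% of those of the Control libraries, and the last library holds 2 such UMIs.

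C5ar1, the C5a receptor, had 667, 556 and 540 CPM in YAP5SA macrophages, against 533 and 406 CPM in Control ones. All YAP5SA values were above both Control values, and groups did not overlap for 35.9% of the genes tested in macrophages. The log2 fold change was 0.22 ± 0.36 (SE; edgeR, Benjamini-Hochberg adjusted p = 0.897). Mac2, Mac1, Mac3 and Mac4 averaged 634, 630, 580 and 532 CPM in YAP5SA and 444, 538, 577 and 383 CPM in Control, each overlapping its neighbours. Monocytes were lower, at 458, 324 and 365 CPM in YAP5SA and 363 and 235 CPM in Control. In EpiC, where C3 was highest, C3ar1 had 27.4, 96.5 and 35.8 CPM in YAP5SA (1, 9 and 3 UMIs) and 0 and 21.1 CPM in Control (0 and 5 UMIs). The thinned share of EpiC cells with a C3ar1 UMI was 6.67, 6.25 and 3.45% in YAP5SA and 0 and 1.23% in Control, beside 0 to 3.24% of YAP5SA and 0 to 0.756% of Control endothelial cells.

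**Figure D5:**
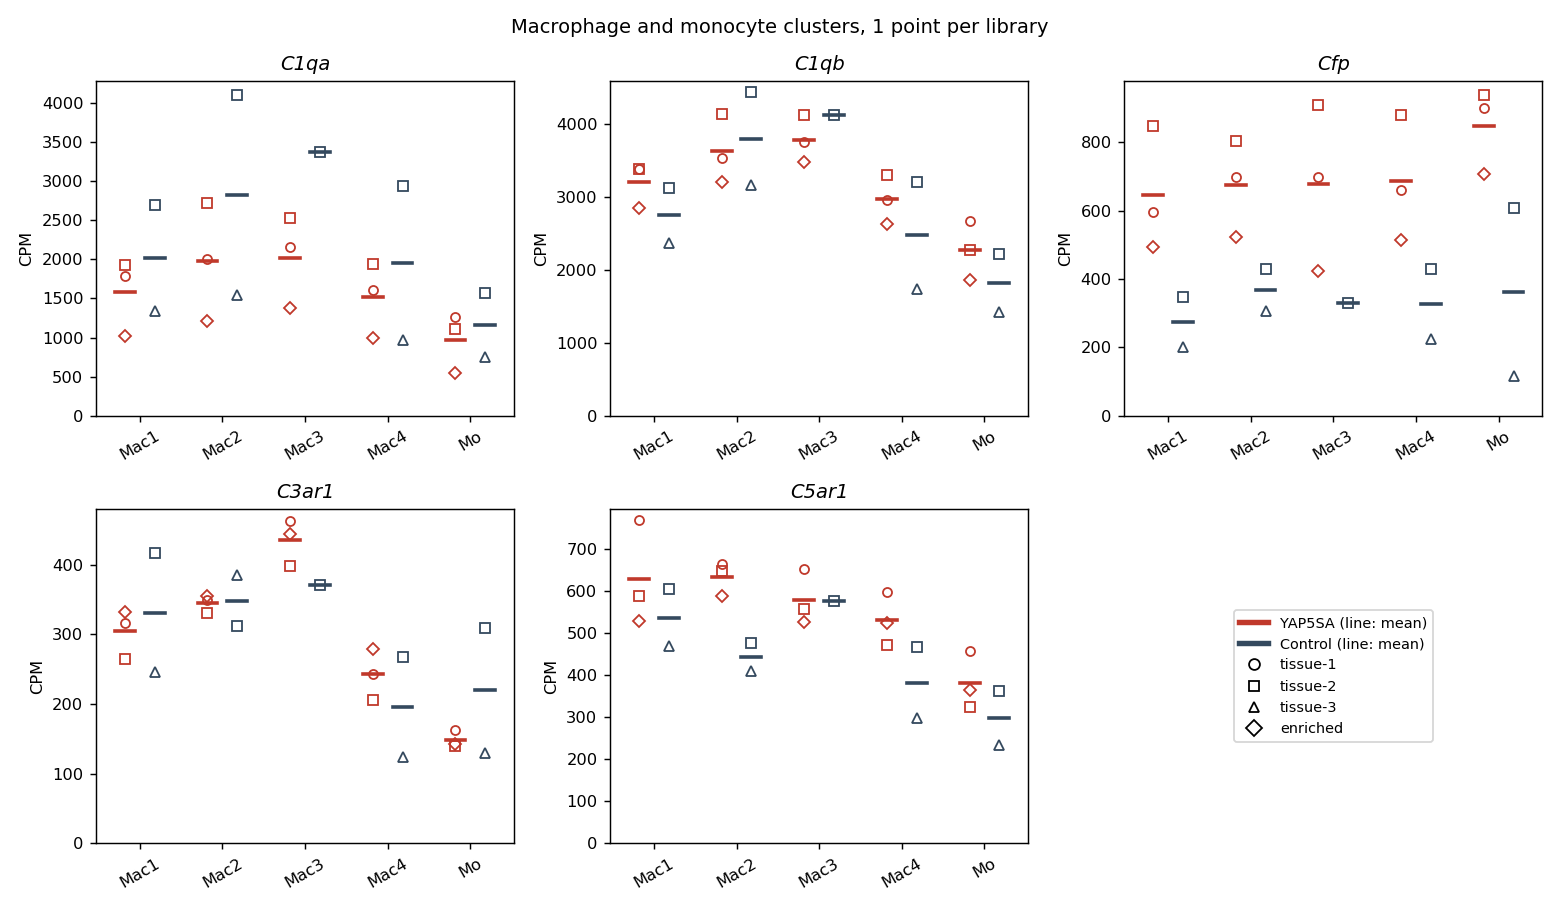
CPM of C1qa, C1qb, Cfp, C3ar1 and C5ar1 in clusters Mac1 to Mac4 and Mo, with 1 point per library of at least 10 cells, YAP5SA (red) left of Control (dark) and lines for means. Cfp is higher in every YAP5SA library than in every Control library in all 5 clusters, while C1qb and C3ar1 overlap in Mac1, Mac2 and Mac4.

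Over all cells of a library, the myeloid genes were at higher levels in YAP5SA. In these sums the number of cells of a type and the RNA per cell cannot be told apart. Within macrophages the log2 fold changes were -0.27 for C3ar1, -0.29 for C1qa, 0.03 for C1qb, 0.22 for C5ar1 and 1.08 for Cfp. Macrophages were 47.3, 53.1 and 40.0% of the cells of the YAP5SA libraries, against 20.6, 4.75 and 0% of the Control libraries (exact two-sided permutation p = 0.1667, the smallest possible). C3ar1 had 144, 141 and 94.9 CPM over all YAP5SA cells, against 40.9, 10.7 and 0.591 CPM over all Control cells, with a log2 fold change of 2.95 ± 0.95 (SE; edgeR, Benjamini-Hochberg adjusted p = 0.108). Cfp had 324, 466 and 160 CPM, against 50.8, 11.1 and 0.887 CPM, with 4.06 ± 0.91 (SE; edgeR, Benjamini-Hochberg adjusted p = 0.0583). C3 had 172, 214 and 159 CPM over all YAP5SA cells and 165, 205 and 36.1 CPM over all Control cells, which overlapped. Neither any of the 9 members nor any other gene passed in edgeR (0%), 6 members and 4581 genes had an unadjusted p under 0.05, and DESeq2 called 6 members and 3723 genes. Without Control tissue-2, 6 members passed, the same number and the same 6 (C3ar1, Cfp, Cd55, C1qa, C1qb and C5ar1) with log2 fold changes of 1.48 to 4.97, beside 6269 genes called in all in that fit.

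The genotype effect on C1ra differed between classes by a direct test. It was 3.57 lower on the log2 scale in fibroblasts than in cardiomyocytes (-3.57 ± 0.58, SE; edgeR, Benjamini-Hochberg adjusted p = 1.04e-07) and 5.00 lower in macrophages than in cardiomyocytes (-5.00 ± 0.89, SE; edgeR, Benjamini-Hochberg adjusted p = 0.000329). Of 9 members tested, 4 passed for fibroblasts against cardiomyocytes, beside 17.4% of all genes, and 2 passed for macrophages against cardiomyocytes, beside 12.9%. Between fibroblasts and macrophages 0 of 9 passed in edgeR, beside 0.266% of all genes, and 2 had an unadjusted p under 0.05. The number of all genes under that unadjusted p is not given for this comparison. C1ra had 78.1, 100.5 and 79.0 CPM in YAP5SA fibroblasts and 51.6, 89.1 and 112 CPM in Control ones, the last from 1 UMI.

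Of 48 further complement genes, 35 were in the table. In cardiomyocytes 12 were tested, 2 rose, beside 13.9% of all genes, and 1 fell, beside 12.6%. C1qbp, a mitochondrial protein first known for binding C1q, fell to 137, 163 and 175 CPM in YAP5SA, against 214, 257 and 263 CPM in Control (log2 fold change -1.49, edgeR, Benjamini-Hochberg adjusted p = 0.0186). Itgb2, a leukocyte integrin chain of complement receptors, rose to 4.72, 7.14 and 4.51 CPM in YAP5SA, against 1.18, 0.547 and 0 CPM in Control (2.47, edgeR, Benjamini-Hochberg adjusted p = 0.0479). Colec12, a scavenger receptor of the collectin family, rose to 9.44, 14.3 and 9.70 CPM in YAP5SA, against 1.47, 2.60 and 0.347 CPM in Control (2.03, edgeR, Benjamini-Hochberg adjusted p = 0.0480). In fibroblasts 2 of 16 passed as higher, beside 1.45% of all genes: C2 with its overlapping neighbours at 2.40 and Itgam at 2.10 (edgeR, Benjamini-Hochberg adjusted p = 0.00544 and 0.0372), and both are uncertain because their counts depend on how overlapping genes were named. Itgam in Mac4 shows this, with 459 and 499 CPM in YAP5SA libraries with joined names, 8.32 CPM in the YAP5SA library without, 214 CPM in Control tissue-2 with joined names and 0 CPM in Control tissue-3 without. Among the rest, Serping1, the C1 inhibitor, and C1s1, the partner protease of C1r, were highest in EpiC, at 3444 and 458 CPM over all libraries. Fcna, a ficolin, was highest in Mac2 at 249 CPM.

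Across the 17 clusters, with counts summed over all libraries, the genes most like each member were found by Pearson correlation of log2(CPM + 1) among 13672 genes, as a description without a test. C3 was nearest to Spon2 (r = 0.97), Itgb8 (0.96) and Osr1 (0.96), and C1ra to Glt8d2, Parn and Creb3l1 (0.94 each). C3ar1 was nearest to Aif1, C1qa and Arhgap30 (0.99 each), C5ar1 to C1qb, Alox5ap and Fcer1g (at least 0.99 each), and Cfp to Pld4 (0.997), Lilrb4a (0.996) and Igsf6 (0.996). C1qa and C1qb were nearest to each other, C1qc and Mrc1 (at least 0.99 each). Cd55 was nearest to Adamts5 (0.96), Prelp (0.95) and Cd34 (0.94), and C4b to C2 (0.91), Wwox (0.90) and Trf (0.90). C3 correlated at 0.89 with C1ra and at -0.24 with its receptor gene C3ar1, and the points share their libraries and depth.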

How the data were processed

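Drop-seq count tables of 6 libraries were used, with the cluster names and phase calls of the authors. The deposited table holds raw UMI counts per feature and cell, and Picard, STAR and Seurat 2.3.4 are named per the submitters' processing notes, while the build and annotation are not given in the sources used here. The mitochondrial fraction per cell is also the authors' deposited value. Of the features, 782 bear joined gene names, in 4 of the 6 libraries, and these were merged with their single-name forms, which left 21269 features. Depth was taken from column sums, because the deposited UMI total equals them in 12109 of 21706 cells. The file numbers the YAP5SA tissue libraries 1 and 2, while the labels number them 2 and 3, so they are named here as in the file.

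Counts were summed per library in each cluster, class (fibroblasts CF1 to CF4, macrophages Mac1 to Mac4, cardiomyocytes CM1 to CM3 with YAP5SAcm) and whole library, using libraries with at least 10 cells. The sums were fitted with edgeR 4.0.16 (quasi-likelihood, TMM, low counts filtered, preparation and genotype as terms) in R 4.3.3, with Benjamini-Hochberg adjustment over all genes tested and a threshold of 0.05. The shares of genes whose groups did not overlap were counted on CPM after TMM scaling, while the levels printed per library are without that scaling. Differences between classes were tested as an interaction. Shares of cells and UMIs were tested by exact permutation of genotype within preparation. Thinned shares use cells of at least 1000 UMIs, drawn down to that number, and the floor is 3 counts, which covers counting error only. DESeq2 1.42.0, other scalings, filters and left-out libraries were alternatives. The procedure was tested on simulated data. Doublets were not called here. The members, gene lists and named genes (the members, the called genes of the complement list and the 3 genes most like each member) were chosen with earlier results of these data known. C1ra, C4b and Cd55 have near-identical copies (C1rb with 88 UMIs, C4a with 12, Cd55b with 6 in all), so their counts are uncertain to that extent.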

Additional observations from a re-analysis of the deposited data

Results flagged for a closer look

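The genotype effect differed between cell classes for 5 members, as tested by the interaction of class and genotype in edgeR with Benjamini-Hochberg adjustment. For C1ra the difference was -3.565 (log2, SE 0.58, adjusted p = 1.04e-07) for fibroblasts against cardiomyocytes and lay between -3.91 and -3.19 with each library left out. For macrophages against cardiomyocytes it was -5.003 (edgeR, Benjamini-Hochberg adjusted p = 0.000329), between -5.29 and -4.78 with each library left out. C1ra was higher in all 3 YAP5SA than in all 3 Control libraries in cardiomyocytes, where groups did not overlap for 48.2% of the genes tested.

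C5ar1 differed by -2.492 between fibroblasts and cardiomyocytes (edgeR, Benjamini-Hochberg adjusted p = 0.00174). Its fibroblast levels were 7.32, 10.1 and 5.45 CPM in YAP5SA and 4.65, 89.1 and 0 CPM in Control, and without Control tissue-3 the difference was 0.036 (edgeR, Benjamini-Hochberg adjusted p = 0.995). The call was also lost without Control enriched (-2.32, edgeR, Benjamini-Hochberg adjusted p = 0.164) and with library totals alone (-3.20, 0.140). C3ar1 differed by -2.344 between fibroblasts and cardiomyocytes (edgeR, Benjamini-Hochberg adjusted p = 0.0219), with fibroblast levels of 3.42, 4.30 and 3.81 CPM in YAP5SA and 3.80, 25.1 and 0 CPM in Control. Without Control tissue-3 it was -0.63 (edgeR, Benjamini-Hochberg adjusted p = 0.713), and leaving out any of the YAP5SA libraries or Control enriched also ended the call. Cfp differed by -1.898 (edgeR, Benjamini-Hochberg adjusted p = 0.0203), with 6.34, 16.1 and 8.71 CPM in YAP5SA fibroblasts and 5.50, 32.0 and 0 CPM in Control ones, and by -0.46 without Control tissue-3 (edgeR, Benjamini-Hochberg adjusted p = 0.749). The Cfp call was also lost without YAP5SA tissue-1, YAP5SA tissue-2 or Control enriched (edgeR, Benjamini-Hochberg adjusted p = 0.135, 0.130 and 0.115). In these 3 genes Control tissue-3 was the highest fibroblast library. Its fibroblasts carried 637 CPM of 7 macrophage markers, against 55.8 to 136 CPM in those of the other libraries, and the part of these transcripts in the difference was not tested.

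Cd55 differed by -4.391 between macrophages and cardiomyocytes (edgeR, Benjamini-Hochberg adjusted p = 0.00557). It had 2.01, 2.42 and 1.89 CPM in YAP5SA macrophages and 1.52 and 35.8 CPM in Control ones, where Control tissue-3 was the high library, and without it the difference was -1.99 (edgeR, Benjamini-Hochberg adjusted p = 0.623).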

How the results depend on the processing

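No paired analysis was possible because the files number the YAP5SA tissue libraries 1 and 2 while the labels number them 2 and 3. C1ra in cardiomyocytes passed under each other setting chosen at the start and with each library left out. It was too sparse to be tested in 2 subsets chosen after the data were seen, cardiomyocytes without cells holding marker UMIs and cardiomyocytes without YAP5SAcm. Of the 8 members tested in cardiomyocytes, 7 passed with library totals alone, 2 without the preparation term, 1 with tissue libraries alone, 1 without marker-UMI cells and 0 without YAP5SAcm. In YAP5SAcm 1 member passed with RLE size factors, 3 with library totals and 1 without the filter on low counts. In the main fit of that cluster 7.52% of all genes passed. The numbers over all genes in these other fits are not given here, so the counts are not read as results about the members. Without that filter 2 members passed in CF1, 2 in CM1 and 1 in EC, among 56, 333 and 247 genes called in all, and with at least 30 cells 2 passed in CF4, among 502. In all cells DESeq2 called 6 members. For macrophages against cardiomyocytes 5 passed with library totals, where the number over all genes is not given and 12.9% passed in the main fit. The cause of these changes was not tested.

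Genes called in cardiomyocytes were 2888, against 4503 with library totals, 1779 with tissue libraries alone, 1205 without marker-UMI cells and 17 without YAP5SAcm. In fibroblasts they were 238, against 142 with RLE, 26 with library totals, 25 with DESeq2, 34 without the preparation term, 22 with names as deposited, 0 with tissue libraries alone and 0 with at least 30 cells. In macrophages 0 were called, against 87 with DESeq2 and 490 without the filter, and in all cells 0, against 952 with RLE and 3723 with DESeq2. C4b in fibroblasts had a log2 fold change of -0.021 with tissue libraries alone and -0.023 with at least 30 cells, C1qb in macrophages -0.021 without the preparation term, and C3 in all cells -0.14 without that term and -0.55 with tissue libraries alone.

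With each library left out in turn, members called ranged from 0 to 3 in CF1, from 0 to 2 in CF2, CF3, CF4, EpiC, Mac2, Mo and macrophages, from 0 to 1 in CM1, Mac1 and Mac4, from 1 to 4 in cardiomyocytes, from 0 to 4 in fibroblasts and from 0 to 6 in all cells. For the differences between classes they ranged from 1 to 7 (fibroblasts against cardiomyocytes), 1 to 2 (macrophages against cardiomyocytes) and 0 to 6 (fibroblasts against macrophages). Genes called ranged from 196 to 4589 in cardiomyocytes, 0 to 1165 in fibroblasts, 0 to 1070 in macrophages and 0 to 6269 in all cells. Leaving out a Control tissue library leaves the myeloid and fibroblast clusters with 1 Control library, assumed to vary like the others. For the differences between classes, numbers over all genes are not given for the left-out fits, so those member counts are not read as results about the members. In the main fits 17.4, 12.9 and 0.266% of all genes passed, in the same order. Log2 fold changes that changed sign ranged from -0.14 to 0.80 for C1ra and -0.54 to 0.60 for C4b in fibroblasts, from -0.72 to 0.37 for C1qa and -0.10 to 0.23 for C1qb in macrophages, from -0.57 to 0.47 for C3 in all cells and from -0.025 to 0.23 for C3 in EpiC. The C5ar1 difference of fibroblasts against cardiomyocytes ranged from -4.16 to 0.036, and the difference in the share of cells that are fibroblasts from -0.390 to 24.4 percentage points.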

Other observations

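The authors' phase calls allow levels to be set side by side within a library. Cells called G2M had less C3 per UMI than cells called G1 in fibroblasts, at 44.9, 72.8 and 61.6% of the G1 level in YAP5SA and 46.6 and 42.9% in Control tissue-2 and tissue-3. C3ar1 in macrophages stood at 69.4, 62.6 and 69.2% of the G1 level in YAP5SA and 66.3 and 48.8% in Control. Cfp in macrophages stood at 103, 102 and 110% in YAP5SA and 108 and 121% in Control. The Control tissue-3 values rest on 4 C3 UMIs in 21 G2M-called fibroblasts and 6 C3ar1 UMIs in 36 G2M-called macrophages, so the direction is read from the other 4 libraries, where fibroblast C3 and macrophage C3ar1 were lower in G2M-called cells. These are levels with no test, and phase calls rest on the same transcripts.

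Clu, clusterin, an inhibitor of the terminal complement complex, stood at 1164, 2233 and 2360 CPM in YAP5SA cardiomyocytes, against 13058, 273 and 465 CPM in Control ones. A single library, Control tissue-2, was above all others, and the remaining Control libraries were below all YAP5SA libraries.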
